A study of Mus musculus with 1087 samples.

Results

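HC2 cells are a class of Kit-high blood cells of the mouse embryo, sorted from its AGM region (aorta, gonad and mesonephros), the tissue around the dorsal aorta in which the first hematopoietic stem cells form. The cells described here were sorted with intermediate Gata2 reporter fluorescence (the G2VInt gate) and carry the class name HC2 in the sample labels. There were 44 such cells at E11.5 and 36 at E11, days of embryonic development, or 80 of the 1087 cells in the series. Class, cluster, gate and day were all read from the labels, so no expression value was used here to choose the cells. The clusters are the submitters' own grouping of these same cells, so genes that lead a cluster may have served to define it.

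All embryos on both days were Gata2V/+, with 1 allele of Gata2 linked to the Venus fluorescent protein, and came from Gata2V/V males mated with wild-type C57BL/6HsdJOla females. The comparison is between days, with no treated or mutant group. Tissue was dissociated with collagenase, stained for CD31, cKit and CD27, and sorted as single cells that were sequenced one by one. Neither embryo nor litter nor sorting run is named in the labels, and these do not spell out what HC2 stands for. Each day is therefore 1 sample, the cells within a day are not replicates of that day, and no test of a difference between the days was possible. Pooling of embryos is not stated.

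In the aorta of the mid-gestation embryo, specialised endothelial cells turn into round blood cells that bud into the vessel as clusters. These clusters hold a few stem cells among many more progenitors that already lean towards red cells, mast cells, platelets or granulocytes. The transcription factor Gata2 is needed for the formation of stem cells and stays high in mast cell precursors, whereas its relative Gata1 takes over in red cell, platelet and mast cell lineages. Progenitors of red cells and granulocytes in the embryo can also arrive with the blood from the yolk sac.

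HC2 cells were spread over clusters 9, 10 and 11 of the submitters' clustering that left out CD27+ sorted cells, and the spread was close on both days. Cluster 9, led by the neutrophil enzyme gene Mpo and by Ncf4, held 8 of 44 cells at E11.5 (18.2%, exact 95% interval 8.19 to 32.7) and 7 of 36 at E11 (19.4%, 8.19 to 36.02). Cluster 10, led by Slc45a3, the histamine enzyme gene Hdc and the mast cell protease gene Cpa3, held 23 of 44 (52.3%, 36.7 to 67.5) and 20 of 36 (55.6%, 38.1 to 72.1). Cluster 11, led by the red cell membrane genes Ank1, Ermap and Rhag, held 13 of 44 (29.5%, 16.8 to 45.2) and 9 of 36 (25%, 12.1 to 42.2). For each cluster, the share at E11.5 lay inside the interval at E11. The intervals are Clopper-Pearson and cover counting error only.

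**Figure D1:**
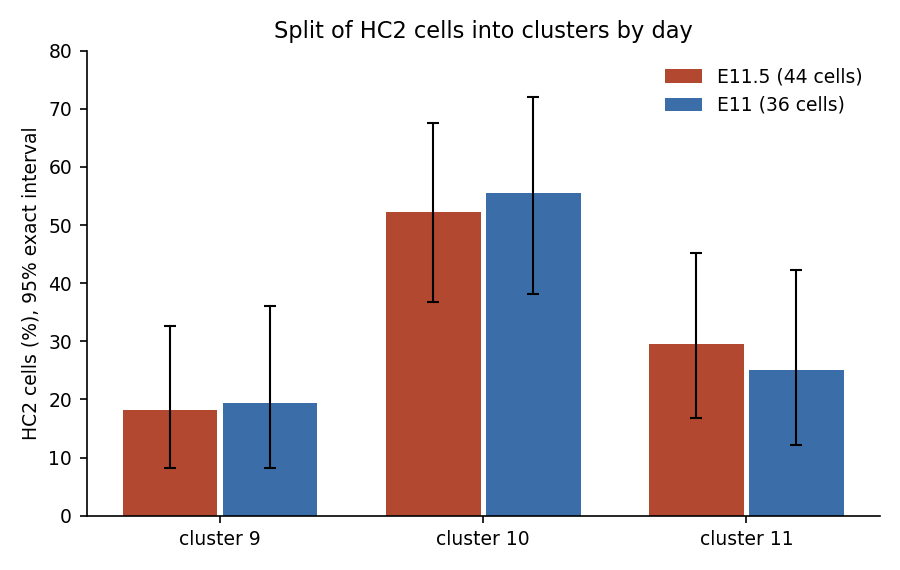
Share of HC2 cells (percent) in clusters 9, 10 and 11 at E11.5 and E11, with exact 95% intervals as error bars. The 3 pairs of bars stand at 18.2% and 19.4%, 52.3% and 55.6%, and 29.5% and 25%, and every pair's intervals overlap.

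Outside these 2 groups cluster 9 held a larger share of HC2 cells. The 8 HC2 cells of the same gate at E10 fell 5, 2 and 1 into clusters 9, 10 and 11, and the 36 HC2 cells of the low-Venus gate (G2VLo) at E11.5 fell 23, 7 and 6. Cluster 9 thus held 62.5% of E10 cells (24.5 to 91.5) and 63.9% of G2VLo cells (46.2 to 79.2). The E10 interval overlaps those of G2VInt cells at E11.5 and E11, while the G2VLo interval lies above both. As a class, the 44 and 36 HC2 cells were 15.8% (11.7 to 20.6) and 27.7% (20.2 to 36.2) of all cells of the gate on their day. Of the markers listed for pan-leukocyte identity, 4 of 4 had at least 10 CPM on each day, summing to 2046 and 2322 CPM. Endothelial markers summed to 51.7 CPM at E11.5 (5.58 to 137.7 per cell) and 61.9 at E11 (1.16 to 213.9). Macrophage markers summed to 38.03 and 40.8 CPM, with medians of 0.647 and 0.588 per cell. Mesenchymal markers summed to 5.65 and 0.199 CPM, with a median of 0 per cell on both days.

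Levels are given as CPM, read counts scaled to 1000000 of the reads summed over the cells of a day, and ratios as log2 of E11.5 over E11, so a positive ratio is higher at E11.5. The summed libraries held 74578849 reads at E11.5 and 75535786 at E11. Single cells held 301490 to 3764623 reads at E11.5 (median 1665490) and 561262 to 4290259 at E11 (median 1984030). The median cell had reads of 10512 and 10401 genes, and 3.41% and 3.42% of its reads came from mitochondrial genes. Library numbers ran from 8157 to 8435 at E11.5 and from 7428 to 7572 at E11, so day and library block cannot be told apart. Reads of Y-linked genes and Xist called 21 of 44 cells male at E11.5 (47.7%) and 28 of 34 sexed cells at E11 (82.4%). Sex moved with the day. For genes whose ratio over the class is given, the ratio in male cells alone stands beside it where it turned the direction, brought a gene inside 2-fold or moved the ratio by more than 1.5-fold.

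Most genes had nearly the same level on both days. A gene counted as measured when it reached 10 CPM on 1 day and had a read in at least 20% of that day's cells after each cell was thinned to 100000 reads, and 9273 genes did. The median log2 ratio was -0.06, so negative ratios were the more common, and 77.5% of ratios lay within 0.5 of 0. Counts of positive and negative members of the lists below are to be read beside this. Of these genes 1.94% were at least 2-fold higher at E11.5 and 3.31% at least 2-fold lower. Without each gene's highest cell on its higher day these shares were 1.08% and 1.59%. Within clusters, where fewer cells stand behind each sum, 12.8% and 12.9% of 9343 measured genes were past 2-fold higher and lower in cluster 9. The same shares were 5.82% and 8.13% of 9485 genes in cluster 10, and 5.88% and 9.27% of 9004 genes in cluster 11. In the HC1 class of the same gate, which has more cells on each day, 0.463% and 0.957% of 9927 measured genes were past 2-fold.

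Gata2, Kit and Pecam1 transcripts were within 2-fold by day, and Cd27 was low. Gata2, the gene that carries the reporter, had 0.432 to 1915 CPM per cell at E11.5 (median 193.6) and 0.672 to 2428 at E11 (median 135.7). Its summed level was 358.3 CPM (Poisson 95% interval 353.995 to 362.6) and 357.1 CPM (352.8 to 361.4), a log2 ratio of 0.00. Cluster 10 had the most Gata2 on each day, with 703 and 636 CPM, against 145.7 and 130.7 in cluster 9 and 48.7 and 73.6 in cluster 11. Kit, the receptor for stem cell factor, had 481 and 537 CPM (-0.16), with reads in every cell. Pecam1, which encodes CD31, had 89.1 and 115.9 CPM (-0.38, and 0.10 in male cells alone). Cd27, a receptor of the TNF family, was below the measured level over the class (3.31 and 12.6 CPM), with a ratio of -1.93, or -0.95 without its highest cell and -1.02 in male cells alone. Within cluster 9 it had 13.6 and 50.02 CPM, with reads in 4 of 8 and 6 of 7 cells.

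The master regulators of red and white cell fate also differed little over the class. Gata1 had reads in 41 of 44 cells at E11.5 (0 to 793 CPM, median 322.1) and in 29 of 36 at E11 (0 to 1259, median 231.4). The summed level was 317.4 and 277.02 CPM, a log2 ratio of 0.20. By cluster the Gata1 ratio was 0.66 in cluster 10 (409.02 and 260 CPM) and -0.56 in cluster 11 (357.5 and 528 CPM). In cluster 9, with 8 and 7 cells, the highest cell had 167.6 CPM of Gata1 at E11.5 and 25.8 at E11. The 9 erythroid markers, Gata1 among them, summed to 48.7 and 2.91 CPM in that cluster. Spi1, which encodes the myeloid factor PU.1, had 180 and 200 CPM (-0.15), with 496 and 488 CPM in cluster 9. Cells with at least 100 CPM of Gata1 and of Spi1 together numbered 15 of 44 at E11.5 (34.1%, 20.5 to 49.9) and 8 of 36 at E11 (22.2%, 10.1 to 39.2). In cluster 10 such cells were 14 of 23 (60.9%, 38.5 to 80.3) and 6 of 20 (30%, 11.9 to 54.3), and the intervals overlap. This level was chosen after the values were seen.

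Granulocyte genes were dominated by a few cells of cluster 9. Mpo, the peroxidase of neutrophil granules, had 0 to 9268 CPM per cell at E11.5 (median 83.1) and 0 to 12792 at E11 (median 59.2). Its sum was 1122 and 1261 CPM (-0.17), with 3788 and 4338 CPM in cluster 9, and at E11 its highest cell held 32.6% of all its reads. In cluster 10 single cells reached 5086 CPM at E11.5 and 2716 CPM at E11, while cluster 9 cells at E11.5 went down to 0 CPM. The days overlap. Prtn3, another granule protease, had 163.1 and 157.99 CPM (0.05, or -0.26 without its highest cell). Of 22 neutrophil granule genes, 6 were measured over the class and none was at least 2-fold higher. Only Csf3r, the receptor for granulocyte colony-stimulating factor, was at least 2-fold lower. Within cluster 9, 10 of the 22 were measured, 5 with a positive and 5 with a negative ratio. There 4 were at least 2-fold higher and 1 lower, beside 12.8% and 12.9% of all measured genes, and the list's median lay 0.36 above. Csf3r had reads in 16 cells on each day, at 30.1 CPM at E11.5 and 61.4 at E11 (-1.03, or -0.85 without its highest cell and -0.61 in male cells alone). Within cluster 9 it ran from 0 to 179.03 CPM per cell (median 68.7) at E11.5 and from 20.9 to 302.9 (median 195.1) at E11, and the days overlap.

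Cytokine receptor genes shared no direction. Of 22 such genes, 15 were measured, 5 had a positive and 10 a negative ratio, 2 were at least 2-fold higher and 2 lower, and the list's median was level with that of all measured genes. Csf2ra, the specific chain of the GM-CSF receptor, had 0 to 253.03 CPM per cell at E11.5 (median 22.7) and 0 to 97.03 at E11 (median 5.45). Reads came from 35 of 44 and 25 of 36 cells, and the sums were 32.3 and 15.5 CPM (1.06, or 0.72 without its highest cell). Its ratio was positive in each cluster, at 1.91, 0.69 and 0.55 in clusters 9, 10 and 11, and was 0.50 in male cells alone. The shared chain Csf2rb had 277.2 and 112.9 CPM (1.30), but 1 cell of cluster 9 at 4739 CPM held 50.2% of its E11.5 reads. Without that cell the ratio was 0.33, and in male cells alone it was -1.38. Csf2rb2, a near copy of Csf2rb, had a ratio of 0.34, -1.61 without its highest cell and -1.10 in male cells alone, and reads may be split between the pair.

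The mast cell genes Cpa3 and Hdc gave lower sums at E11.5, and these sums rested on few cells. Cpa3, which encodes a carboxypeptidase stored in mast cell granules, had reads in 23 of 44 cells at E11.5 (0 to 5342 CPM, median 33.4) and in 27 of 36 at E11 (0 to 5290, median 15.7). Its sum was 131.3 CPM (128.7 to 133.95) at E11.5 and 374.5 CPM (370 to 378.9) at E11, a log2 ratio of -1.51. The median cell was thus higher at E11.5 while the sum was lower, and the days overlap over nearly their whole range. One E11 cell of cluster 10 held 49.8% of the E11 Cpa3 reads, and without it the ratio was -0.57. Cells at 1000 CPM or more of Cpa3 and of Hdc at once numbered 2 at E11.5 and 3 at E11. On each day 1 and the same cell led for both genes, with 442156 reads in all at E11.5 and 2661857 at E11, so the leading E11 cell weighed more in its day's sum. The mean of per-cell levels, which weighs cells equally, gave a ratio of -0.64 for Cpa3 and -0.44 for Hdc.

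The mast cell list as a whole was mixed. Of 36 mast and basophil genes, 17 were measured, 7 had a positive and 10 a negative ratio, 1 was at least 2-fold higher and 3 were lower. Hdc, which makes histamine, had 0 to 6161 CPM per cell at E11.5 (median 41.2) and 0 to 6153 at E11 (median 7.35). The sums were 297.3 and 603 CPM (-1.02, or -0.43 without its highest cell). Within cluster 10 the Hdc ratio was -1.25, and in cluster 9 it was 2.95, with 312.1 and 40.3 CPM and reads in 6 of 8 and 4 of 7 cells. Il1rl1, the receptor for interleukin 33, had 16.6 and 36.7 CPM (-1.14, or -0.40 without its highest cell and -0.84 in male cells alone), with reads in 15 and 14 cells. Slc18a2, which loads histamine into vesicles, had 73.5 and 132.8 CPM (-0.85). Srgn, the core of granule proteoglycans, was read in every cell, at 510 and 684 CPM (-0.42). Alox5, which makes leukotrienes, had 142.2 and 130.5 CPM (0.12). The list's median lay -0.15 from that of all measured genes in the class, -0.60 in cluster 10 and 0.90 in cluster 9. Ms4a2, a chain of the IgE receptor, had no read in 44 cells at E11.5, and of its 20.4 CPM at E11 nearly all came from 1 cell at 573 CPM.

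Promoter sequences are shown for genes of the mast and red cell lists that led cluster 10 or 11 or were at least 2-fold apart by day, because GATA factors are the regulators that these lineages share. Each is the 250 bases before the RefSeq start site (GRCm38.p6), read along the gene's strand, with capitals for AGATAA or TGATAA or their reverse complements TTATCT and TTATCA. Cpa3 (chr3:20242182-20242431, minus strand), Hdc (chr2:126618679-126618928, minus), Il1rl1 (chr1:40429320-40429569, plus), Kel (chr6:41704326-41704575, minus) and Ermap (chr4:119189996-119190245, minus) read 5′ to 3′ as follows.
Cpa3: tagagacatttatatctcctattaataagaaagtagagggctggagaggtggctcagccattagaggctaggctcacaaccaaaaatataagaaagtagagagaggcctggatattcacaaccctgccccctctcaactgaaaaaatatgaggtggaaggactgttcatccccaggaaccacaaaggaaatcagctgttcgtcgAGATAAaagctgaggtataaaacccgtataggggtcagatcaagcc
Hdc: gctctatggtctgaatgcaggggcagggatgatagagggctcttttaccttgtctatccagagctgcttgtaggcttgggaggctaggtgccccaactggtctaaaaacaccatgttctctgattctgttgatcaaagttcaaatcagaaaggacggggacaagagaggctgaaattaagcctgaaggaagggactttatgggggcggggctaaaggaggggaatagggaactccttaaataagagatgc
Il1rl1: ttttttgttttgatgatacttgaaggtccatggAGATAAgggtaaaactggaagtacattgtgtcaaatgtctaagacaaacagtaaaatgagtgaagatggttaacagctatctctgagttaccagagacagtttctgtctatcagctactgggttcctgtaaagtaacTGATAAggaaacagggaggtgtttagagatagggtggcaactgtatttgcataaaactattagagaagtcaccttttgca
Kel: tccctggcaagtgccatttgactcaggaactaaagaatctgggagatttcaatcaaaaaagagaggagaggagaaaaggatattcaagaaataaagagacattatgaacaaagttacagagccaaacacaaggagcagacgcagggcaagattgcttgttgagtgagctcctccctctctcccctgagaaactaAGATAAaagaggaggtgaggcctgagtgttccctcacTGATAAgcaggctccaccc
Ermap: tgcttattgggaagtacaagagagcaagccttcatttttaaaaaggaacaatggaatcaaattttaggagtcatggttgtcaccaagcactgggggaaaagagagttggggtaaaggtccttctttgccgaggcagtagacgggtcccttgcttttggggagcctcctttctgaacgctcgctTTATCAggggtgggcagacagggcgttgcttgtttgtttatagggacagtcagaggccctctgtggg
The Cpa3 window holds 1 match, 46 bases before the start site, Il1rl1 holds 2, Kel holds 2 and Ermap holds 1 on the opposite strand. The Hdc window holds none, and its start site lies 621 bases from the gene start in GENCODE M21. No matches overlap. Of 32851 such windows in the RefSeq table, 5452 (16.6%) hold at least 1 match, as do 13 of 39 windows of the mast and basophil list (33.3%), 8 of 18 of the erythroid membrane list (44.4%) and 3 of 14 of the heme synthesis list (21.4%). A match describes these letters and is not evidence of binding.

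Red cell genes leaned higher at E11.5 by less than 2-fold. Of 12 erythroid transcription factor genes, all 12 were measured, 10 had a positive ratio and none was 2-fold apart. The median of these genes lay 0.20 above that of all measured genes. Within cluster 11, the red cell cluster, 5 of the 12 had a positive and 7 a negative ratio. Zfpm1, the Gata1 cofactor known as FOG1, had 51.5 and 33.5 CPM (0.62), the adaptor Lmo2 had 282.7 and 220 (0.36), and Klf1, which switches on adult globin, had 238.97 and 211.7 (0.18, and -0.31 in male cells alone). In heme synthesis 13 of 14 genes were measured and 11 had a positive ratio, led by the late enzymes Cpox (174.7 and 101.8 CPM, 0.78, and -0.59 in male cells alone) and Uros (30.1 and 18.04 CPM, 0.74). The list's median lay 0.41 above that of all measured genes. Of 23 erythroid membrane and surface genes in the table, 15 were measured and 11 had a positive ratio, with a list median 0.29 above. In male cells alone the medians of the heme and membrane lists lay at -0.03 and -0.15, so this lean was absent there. With all cells of clusters 9, 10 and 11 in turn, the heme median lay at 0.48, 0.25 and 0.22, highest outside the red cell cluster. The membrane median lay at -0.12 (4 measured members), 0.30 and 0.15.

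Single red cell genes were on or off among cells. Car1, the carbonic anhydrase that marks early red cell progenitors, had 0 to 3307 CPM per cell at E11.5 (median 0.151) and 0 to 763 at E11 (median 0). It reached 100 CPM in 13 of 44 and 10 of 36 cells, and its sum was 195.8 and 112.2 CPM (0.80, or 0.39 without its highest cell). Ermap, an erythroblast membrane protein, had 0 to 644 CPM per cell (median 0.190) and 0 to 542 (median 0), with 100 CPM or more in 13 of 44 and 6 of 36 cells. Its sum was 112.5 and 68.7 CPM (0.71, and -0.49 in male cells alone). Within cluster 11 Ermap had 288.9 and 198.7 CPM (0.54), and every one of the 13 E11.5 cells had reads, against 8 of 9 at E11. Epor, the erythropoietin receptor, had 83.6 and 67.2 CPM (0.32, and -0.48 in male cells alone).

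Kel went the other way. This gene encodes the Kell blood group protein and was among the leading genes of cluster 10 rather than cluster 11. It had 0 to 1041 CPM per cell at E11.5 (median 9.14) and 0 to 1878 at E11 (median 15.05), and sums of 91.004 and 217.3 CPM (-1.26, or -0.79 without its highest cell and -0.46 in male cells alone). Adult globin was low. Hbb-bt had 20.8 and 8.45 CPM (1.30, or 0.80 without its highest cell and 2.71 in male cells alone), with reads in 20 of 44 and 14 of 36 cells. Its near copy Hbb-bs had 33.7 and 1.15 CPM, with 1 E11.5 cell at 990 CPM, and reads of the pair may be split. The embryonic globin gene Hbb-y had 1.65 and 19.7 CPM. Neither counted as measured over the class, because less than 20% of the higher day's cells had a read after thinning. Alas2, the red cell enzyme that starts heme synthesis, had 2.80 and 8.05 CPM, with reads in 10 and 8 cells.

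**Figure D2:**
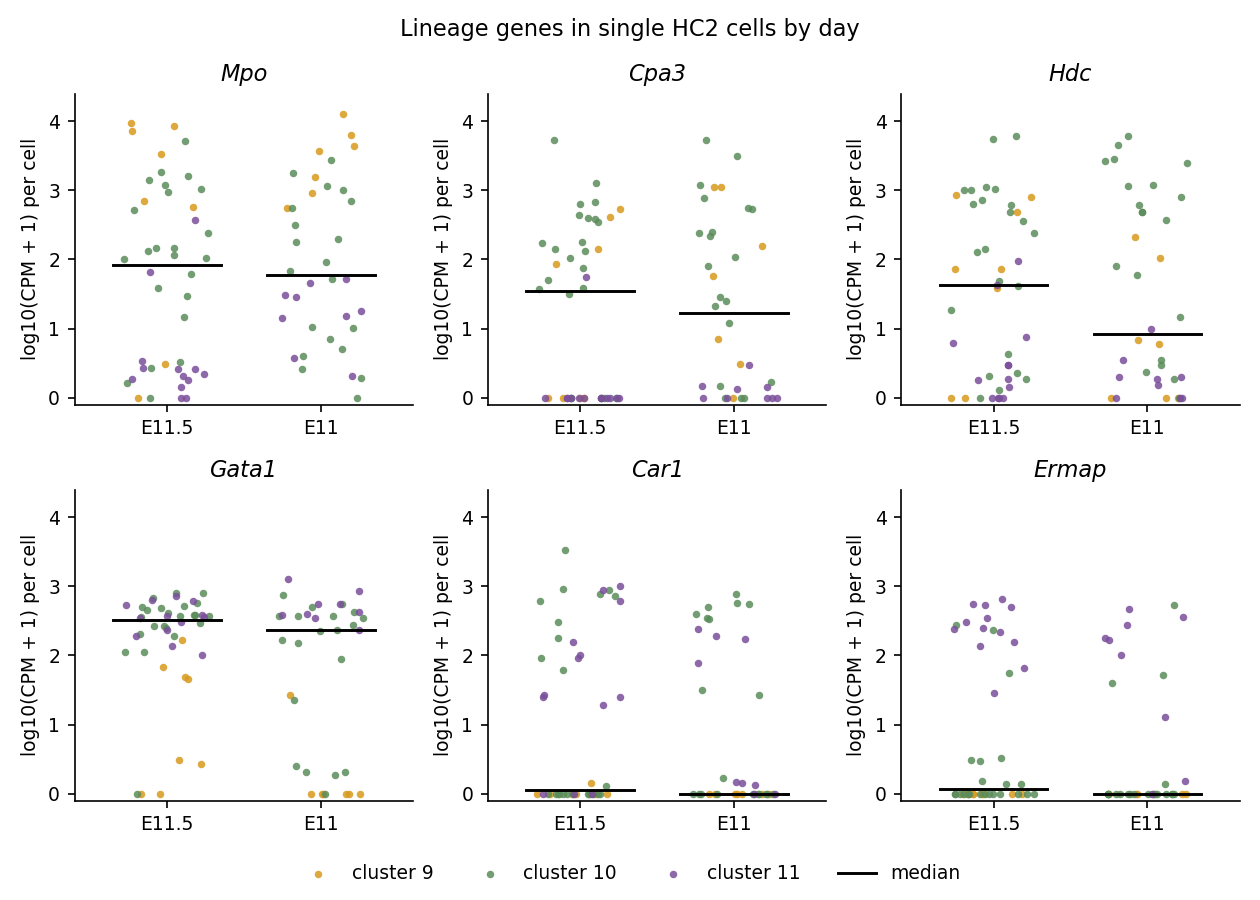
Level of 6 lineage genes in single HC2 cells, as log10(CPM + 1), at E11.5 (44 cells) and E11 (36 cells). Each point is a cell coloured by cluster and the bar is the median of the day. Mpo, Cpa3 and Hdc reach above 1000 CPM in a few cells on each day, while the Gata1 medians stand at 322.1 and 231.4 CPM.

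Platelet lineage genes split evenly over the class but not within clusters. Of 23 megakaryocyte genes, 14 were measured, 7 had a positive and 7 a negative ratio, and none was 2-fold apart. In cluster 9, 4 had a positive and 9 a negative ratio, and the median lay 0.40 below that of all measured genes. In cluster 10 these counts were 8 and 6, and in cluster 11 they were 11 and 4, with medians 0.18 and 0.38 above. Itga2b, which encodes CD41, the first surface marker of embryonic blood progenitors, had 241.5 and 245.4 CPM (-0.02). Treml1, a platelet granule receptor, had 33.2 and 20.6 CPM (0.69). Itgb3, the partner of CD41, had 28.3 and 53.4 CPM (-0.92) and was highest in cluster 9 (44.6 and 115.7 CPM).

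Genes linked to stem and early progenitor cells were lower as a list over the class, but not in cluster 9. Of 25 such genes, 13 were measured and 10 had a negative ratio, with a list median 0.70 below that of all measured genes. In cluster 9, 9 of 16 measured members had a positive ratio and the median lay 0.49 above, while it lay 0.72 below in cluster 10 and 0.49 below in cluster 11. Msi2, an RNA-binding protein that keeps stem cells from differentiating, had reads in 41 of 44 cells at E11.5 (0 to 110 CPM, median 21.3) and in 35 of 36 at E11 (0 to 303.8, median 45.8). The sums were 25.9 CPM (24.8 to 27.1) and 63.3 CPM (61.5 to 65.1), a ratio of -1.29. Cells at 100 CPM or more of Msi2 numbered 1 of 44 and 10 of 36. It was lower in each cluster, at -0.54, -1.41 and -1.78 in clusters 9, 10 and 11, and without its highest cell (-1.23). In male cells alone the ratio was -0.58.

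The rest of the stem cell list held to smaller differences. Hmga2, a chromatin protein of fetal progenitors, had 52.1 and 90.6 CPM (-0.80) and was lower in each cluster, at -0.50, -0.82 and -0.68. Angpt1, a ligand of the receptor Tek, had 48.1 and 85.4 CPM (-0.83, and 0.04 in male cells alone). Cd34 had 315.1 and 384.3 CPM (-0.29, and 0.14 in male cells alone), nearly all of it in clusters 9 and 10. Mycn had 16.5 and 28.2 CPM (-0.77), and 0.04 without its highest cell. When the 3 clusters were given equal weight the list's median lay 0.05 above that of all measured genes, and without each gene's highest cell it lay 0.21 below. It also stayed within 0.5 in male cells alone (-0.18) and in the lower-numbered (-0.26) and upper-numbered (-0.41) libraries, while the mean of per-cell CPM gave -0.67. Of 24 lymphoid genes 5 were measured, with a median 0.65 below. That median lay at -0.09 with the mean of per-cell CPM, at -0.48 without highest cells, at -0.13 in male cells alone and at 0.25 with equal cluster weights. Ltb, which encodes lymphotoxin beta, had 9.83 and 26.7 CPM (-1.44, or -0.50 without its highest cell and -0.28 in male cells alone), and Satb1, a chromatin organiser, had 17.6 and 37.7 CPM (-1.10, or -0.91 without its highest cell).

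**Figure D3:**
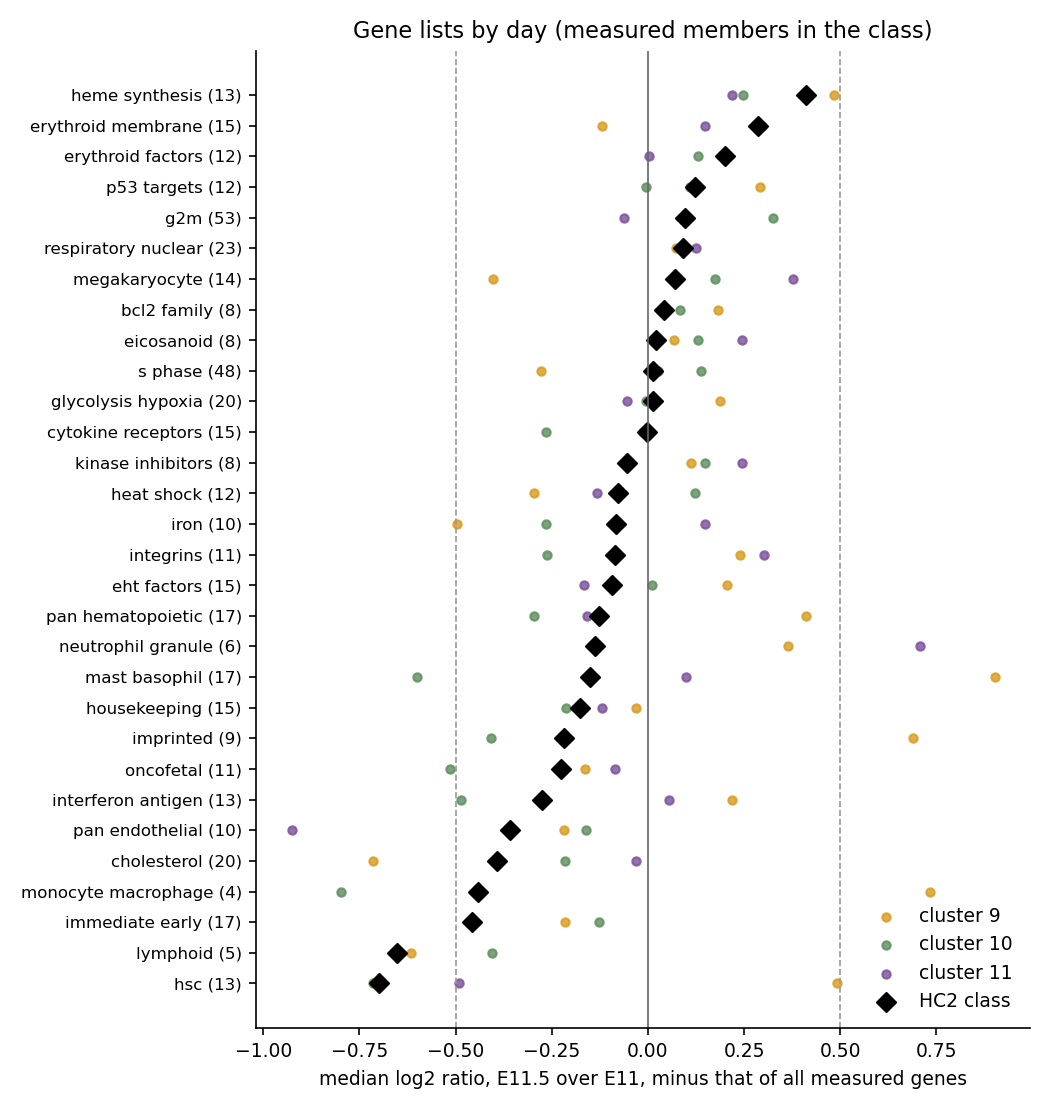
Median log2 ratio (E11.5 over E11) of the measured members of 30 gene lists, minus the median of all measured genes. Diamonds are the HC2 class and points are clusters 9, 10 and 11 where at least 4 members were measured. Dashed lines mark 0.5, the distance at which a list was called: only the stem cell list (hsc, -0.70) and the lymphoid list (-0.65) lie past it for the class.

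Immediate early genes, induced very quickly by stimuli, tissue dissociation among them, leaned lower without reaching the call. Of 23 such genes 17 were measured, 13 had a negative ratio and 2 were at least 2-fold lower. The list's median lay 0.46 below that of all measured genes. Ier3, an early survival gene, had 0 to 615 CPM per cell at E11.5 (median 4.08) and 0 to 1150 at E11 (median 30.3), with sums of 36.99 and 122.2 CPM (-1.72, or -1.01 without its highest cell). Nr4a2, a nuclear receptor, had 28.2 and 68.8 CPM (-1.29, or -0.62 without its highest cell and -0.83 in male cells alone). Among the common members, Egr1 had a ratio of 0.35 and Jun of -0.52. Fos lay at 0.08 and Dusp1 at 0.46, but without their highest cells they lay at -0.34 and -0.28. The part that cell handling had in these values was not tested.

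Gadd45b, a stress gene outside that list, was lower in each cluster. It had reads in 11 of 44 cells at E11.5 (0 to 583 CPM, median 0) and in 20 of 36 at E11 (0 to 920, median 0.673). Its sums were 13.4 and 68.5 CPM (-2.36, or -1.999 without its highest cell and -3.11 in male cells alone), with ratios of -2.59, -1.67 and -3.93 in clusters 9, 10 and 11. In the HC1 class it was higher at E11.5, with 5.19 and 1.71 CPM, both below the 10 CPM needed to count as measured.

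Cholesterol synthesis genes leaned lower too. Of 22 genes of the pathway and its sterol sensors, 20 were measured and 16 had a negative ratio, with a list median 0.39 below that of all measured genes. Lss, lanosterol synthase, had 0 to 93.5 CPM per cell at E11.5 (median 0.631) and 0 to 188.2 at E11 (median 5.83). The sums were 11.6 and 41.5 CPM (-1.83, or -1.73 without its highest cell). The sterol sensor Insig1 had 14.3 and 33.3 CPM (-1.23), and the demethylase Cyp51 had 32.02 and 55.6 CPM (-0.80). Insig1 was lower in each cluster, at -0.94, -1.27 and -1.47. The list's median lay 0.72 below that of all measured genes in cluster 9 and 0.22 below in cluster 10. It lay only 0.03 below in cluster 11, where 14 of 19 measured members had a negative ratio.

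Growth and energy genes did not separate the days over the class. Of 48 S phase genes, all 48 were measured, 23 had a positive ratio, and 1 was at least 2-fold lower. Of 53 genes of G2 and mitosis, 31 of 53 had a positive ratio and none was 2-fold apart. Within cluster 9, 13 of 47 measured S phase genes had a positive ratio and their median lay 0.28 below that of all measured genes. It lay 0.14 and 0.03 above in clusters 10 and 11. Within cluster 10, 39 of 53 genes of G2 and mitosis had a positive ratio and their median lay 0.32 above. It lay 0.09 above in cluster 9 and 0.06 below in cluster 11. Mki67, the proliferation marker, had 260 and 186.6 CPM (0.48, and -0.07 in male cells alone), and Cdk1 had 384.3 and 355.9 CPM (0.11). Of 24 nuclear genes of the respiratory chain 23 were measured, and of 24 genes of glycolysis and hypoxia 20 were measured, and none of these was 2-fold apart. Their medians lay 0.09 and 0.01 above that of all measured genes. Of 15 measured housekeeping genes 12 had a negative ratio, with a median 0.18 below.

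Among imprinted genes Mest was higher at E11.5. This gene, expressed from the paternal allele in mesoderm, lies on chromosome 6 (30723547 to 30748465 in GRCm38). It was read in 44 of 44 cells at E11.5 (3.37 to 266.9 CPM, median 17.5) and in 33 of 36 at E11 (0 to 89.4, median 3.56). Cells at 10 CPM or more numbered 35 of 44 and 4 of 36, and the sums were 21.01 CPM (19.98 to 22.1) and 6.24 CPM (5.68 to 6.82), a ratio of 1.75. The ratio was 3.13, 1.25 and 2.72 in clusters 9, 10 and 11 and 1.65 without its highest cell. Mest had 6265 and 6700 CPM in the EC class of the same gate and 84.3 and 56.4 CPM in HC1. Whether reads from such cells reached HC2 libraries was not tested. Igf2, the growth factor gene imprinted the same way, had 7.59 and 18.3 CPM (-1.27), but 1 E11 cell held 67.8% of its E11 reads and without it the ratio was 0.28. H19 had 9.09 and 18.1 CPM (-0.99). Igf2 and H19 were read in all 80 cells, at medians of 7.15 and 4.4 CPM for Igf2, beside 1215 and 1262 CPM in the EC class.

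Reln gave the cleanest separation of the days. It encodes reelin, a large secreted protein best known for guiding neurons, and lies on chromosome 5 (21884454 to 22344702, minus strand). It was read in 44 of 44 cells at E11.5 (1.86 to 56.03 CPM, median 13.1) and in 0 of 36 cells at E11. The sum was 11.7 CPM (10.9 to 12.5) at E11.5, and 0 reads at E11 allow up to 0.0397 CPM (3 reads in all), so the level was at least 294.059-fold higher at E11.5. Of 46078 genes in the table, Reln was the 1 gene whose lowest E11.5 cell lay above its highest E11 cell, and 0 genes had every E11 cell above every E11.5 cell.

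The same step was present outside HC2 at nearly the same level. Clusters 9, 10 and 11 had 9.66, 13.8 and 10.2 CPM of Reln at E11.5. The HC1 class had 12.7 CPM at E11.5 and 0.0153 at E11, with reads in every cell at E11.5 and in 3 of 77 at E11, and the EC class had 11.4 and 0.50 CPM, with reads in every cell at E11.5 and in 1 of 15 at E11. HC2 cells of the G2VLo gate, also E11.5 but with library numbers from 19310 to 19886, had 0 CPM, as did the 8 HC2 cells at E10. Reln reads were thus present in the library block of the E11.5 G2VInt cells and at or near 0 in the other blocks, and within this gate day and block cannot be told apart.

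**Figure D4:**
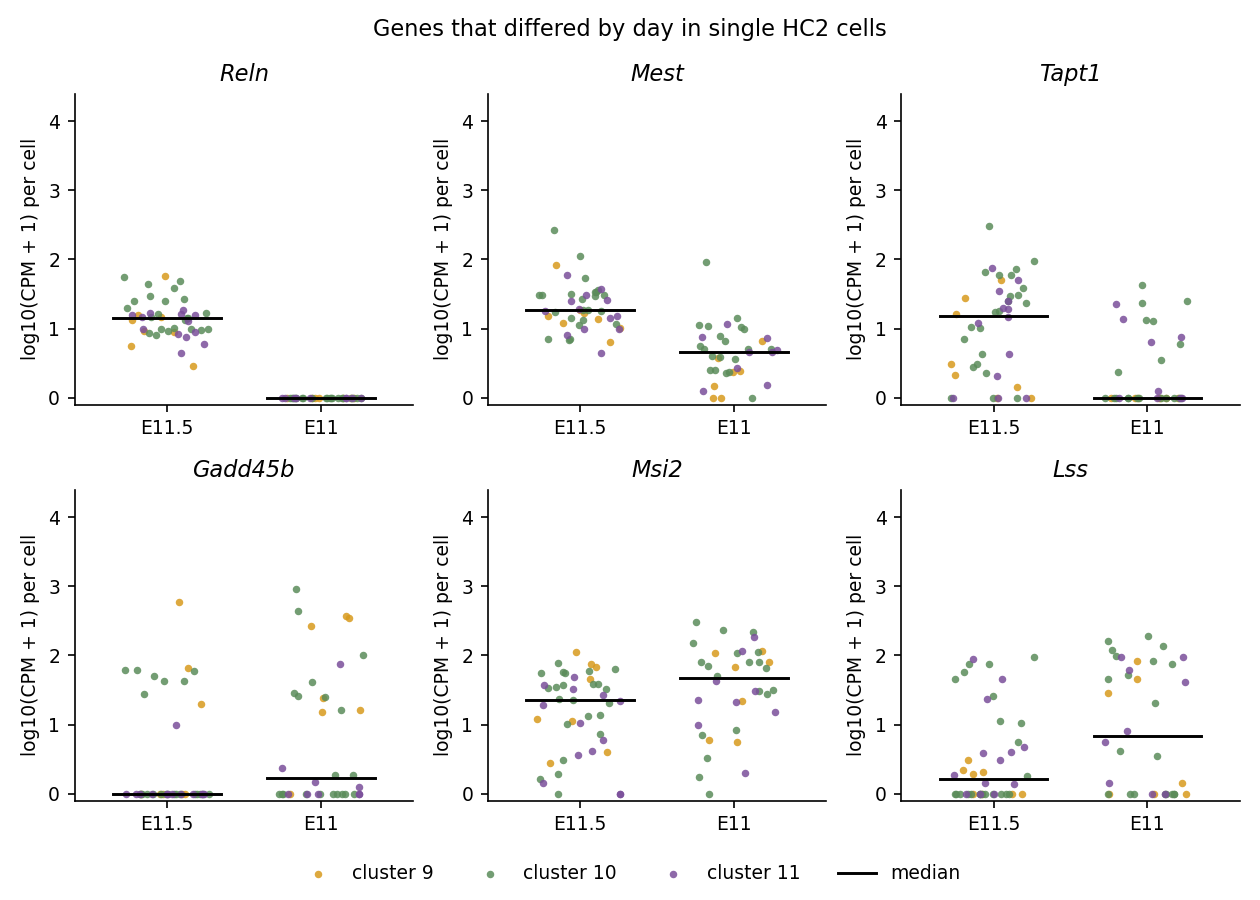
Level of 6 genes in single HC2 cells, as log10(CPM + 1), at E11.5 (44 cells) and E11 (36 cells), with each point a cell coloured by cluster and the bar the median of the day. Reln is the 1 gene without overlap, with 1.86 to 56.03 CPM at E11.5 and 0 at E11. Mest and Tapt1 have higher medians at E11.5 (17.5 and 3.56 CPM, and 14.3 and 0 CPM), and Gadd45b, Msi2 and Lss have lower ones.

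Leaving out pseudogenes, placeholder symbols, and ribosomal protein, mitochondrial and sex-marking genes, 7476 measured genes had at least 10 CPM on 1 day in each cluster. Of these, 10.6% were higher at E11.5 in all 3 clusters and 18% were lower in all 3. The median ratio of all measured genes was below 0 in each cluster (-0.08, -0.04 and -0.07 in clusters 9, 10 and 11). Signs can also agree in 3 clusters without a difference between days, and how often they would was not tested. The 8 higher genes whose smallest ratio was largest were Tep1, Polk, Tapt1, Itpr2, Fstl1, Mest, Acp2 and Tab3. Tapt1, a membrane protein of the primary cilium base, had reads in 36 of 44 cells at E11.5 (0 to 301.05 CPM, median 14.3) and in 13 of 36 at E11 (0 to 41.9, median 0). Its sums were 25.5 and 4.81 CPM (2.41, or 2.19 without its highest cell). Tep1, a telomerase-associated protein, had reads in 34 of 44 and 15 of 36 cells, with sums of 16.7 and 2.59 CPM (2.68). Polk, a DNA polymerase that copies past damage, had 22.3 and 3.48 CPM (2.67), from 22 and 18 cells. Itpr2, a calcium channel of the endoplasmic reticulum, had 20.8 and 4.02 CPM (2.37, and 1.11 in male cells alone). None of these 4 was higher at E11.5 in HC1, where the ratio was -0.23 for Tapt1, -0.21 for Tep1, -0.75 for Polk and -0.82 for Itpr2.

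Fstl1, a secreted glycoprotein that binds BMP ligands, had the most even ratios, at 2.21, 2.25 and 2.24 in clusters 9, 10 and 11. Its values ran from 0 to 291.6 CPM per cell at E11.5 (median 6.08) and from 0 to 120.6 at E11 (median 3.06), and the sums were 45.1 and 10.2 CPM (2.15, and 2.82 in male cells alone). It had 419.1 and 463.7 CPM in HC1 and 667 and 661 in the EC class, and the part of RNA from such cells in the HC2 values was not tested.

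The 8 lower genes chosen the same way were Zfp940, Gadd45b, Bmpr2, Cplane1, Lss, Cd99l2, Oxnad1 and Rab3il1. Bmpr2, the type II receptor for BMP ligands, had reads in 32 of 44 cells at E11.5 (0 to 176.3 CPM, median 3.96) and in 29 of 36 at E11 (0 to 499, median 12.9). Its sums were 9.25 and 35.3 CPM (-1.93, or -1.49 without its highest cell and -1.08 in male cells alone), with ratios of -1.72, -1.89 and -1.94 in the 3 clusters and -0.85 in HC1. Zfp940, a zinc finger gene, had reads in 8 and 14 cells and sums of 1.09 and 16.7 CPM (-3.93, and -5.76 in male cells alone). Cd99l2, an adhesion protein, had 14.8 and 43.2 CPM (-1.54, and -0.94 in male cells alone).

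**Figure D5:**
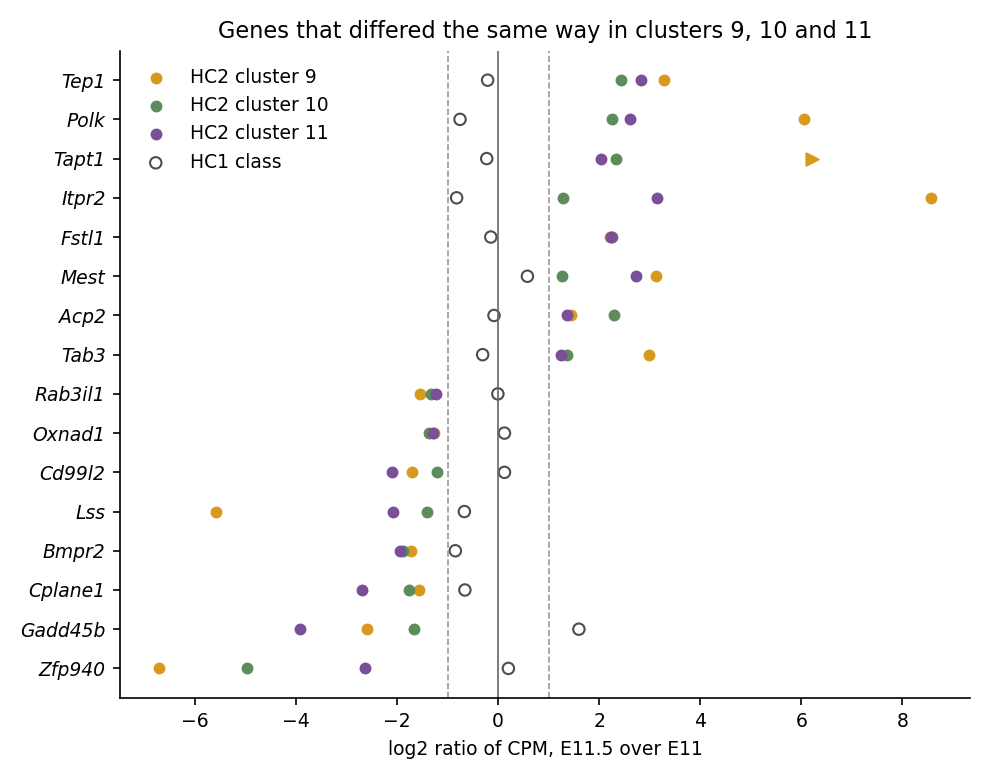
Log2 ratio of summed CPM (E11.5 over E11) in HC2 clusters 9, 10 and 11 and in the HC1 class for the 16 genes, 8 in each direction, whose smallest ratio among the 3 clusters was largest. Triangles are bounds against 3 reads where a cluster had 0 reads on 1 day. In HC1 only Gadd45b passes 2-fold, on the opposite side from its HC2 points, and it is below 10 CPM there on both days.

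Over the class as a whole, 1.11% of the 8395 measured genes left by the same exclusions were at least 2-fold higher, and 1.81% at least 2-fold lower, and stayed at least 1.5-fold apart the same way in the lower- and upper-numbered libraries, by the mean of cells and without their highest cell. After Reln the highest was Cdk18, a cyclin-dependent kinase, with reads in 16 of 44 and 3 of 36 cells and 13.8 and 0.556 CPM (4.62), and 12.7 and 0.0515 CPM in male cells alone. Mettl27, a methyltransferase-like gene, had 12.03 and 0.887 CPM (3.75). Exoc3l had 13.7 and 1.81 CPM (2.91), beside 148.5 and 150 CPM in HC1. Casz1, a zinc finger factor, had 10.8 and 1.97 CPM (2.45, and 1.54 in male cells alone), Entpd1, which encodes the ectonucleotidase CD39, had 17.3 and 3.34 CPM (2.37), and Tceanc had 12.4 and 2.74 CPM (2.18, and 1.19 in male cells alone). Pklr, the red cell pyruvate kinase, had 13.4 and 2.94 CPM (2.18), with reads in 14 and 5 cells, and a ratio of -0.51 in male cells alone.

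The cytokine interleukin 15 and its receptor stood on opposite sides in the summed cells. Il15 had 11.97 and 2.38 CPM (2.33), with reads in 22 and 15 cells. Il15ra had 2.17 and 10.7 CPM (-2.30), with reads in 7 of 44 and 10 of 36 cells. With equal cluster weights the Il15ra ratio turned to 0.34, without the cells of cluster 8 in the clustering of all cells it was -1.18, and male cells alone had 0.0978 and 8.75 CPM. Among the lowest genes, Zfp760 had 2.32 and 24.99 CPM (-3.43, or -2.83 without its highest cell and -2.55 in male cells alone), the kinase-dead receptor Ephb6 had 3.20 and 24.1 (-2.91, or -2.26 without its highest cell and -1.68 in male cells alone), the zinc transporter Slc39a3 had 3.34 and 19.95 (-2.58) and the ubiquitin protease Usp2 had 2.08 and 11.01 (-2.40, and -3.05 in male cells alone). Plekha7, a junction protein, Pik3ap1, an adaptor of PI3 kinase, Lbh, Pde4dip and the matrix gene Fbln1 had ratios between -2.33 and -2.19, and Lbh had -1.57 without its highest cell and -0.89 in male cells alone. These are low genes that were read in 7 to 32 cells at E11.5 and in 10 to 24 at E11.

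Within single clusters the largest gaps came from genes read in few cells. In cluster 9 the adhesion gene Cdh17 had 104.98 CPM at E11.5, from 4 of 8 cells, and 0 reads in 7 cells at E11, and Pla2g7, an enzyme that clears platelet-activating factor, had 123.4 CPM from 3 of 8 cells and 0 reads at E11. Osgin1 was also without reads at E11. On the other side Serpina3f, a protease inhibitor, had 0 reads in 8 cells at E11.5 and 67.4 CPM from 5 of 7 cells at E11, and Hps6, Acss1 and Cd84 were likewise without reads at E11.5. In cluster 10 the decoy receptor Il1r2 had 1.18 CPM from 1 of 23 cells at E11.5 and 290.8 CPM from 11 of 20 cells at E11, where the highest cell reached 4224 CPM. Cyb561, an electron carrier of secretory vesicles, had reads in 1 of 23 and 6 of 20 cells, at 0.0302 and 14.4 CPM. In cluster 11 the mitochondrial carrier Slc25a16 had 17.1 CPM from 10 of 13 cells at E11.5 and a read in 1 of 9 cells at E11, and Ephx2, an epoxide hydrolase, had 19.2 CPM from 8 of 13 and reads in 2 of 9. Dpf1 had 0 reads in 13 cells at E11.5 and 20.2 CPM from 6 of 9 cells at E11. Lrrc56 was higher at E11.5 in cluster 10 (18.8 and 0.165 CPM) and lower in cluster 11 (0.0755 and 23.2 CPM).

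Some further genes of the lists were past 2-fold with a large part of their reads in 1 cell. Plk2, a kinase induced by p53, had 102.3 and 12.7 CPM (3.01), and 0.89 without its highest cell at 2708 CPM and 1.41 in male cells alone. Hspa1a, a heat shock gene with the near copy Hspa1b, had 87.3 and 22.9 CPM (1.93, or 1.02 without its highest cell), beside 142.3 and 28.1 CPM in HC1 and 155.2 and 67.8 CPM in the EC class. Stat2, a mediator of interferon signals, had 13.1 and 36.3 CPM (-1.47, or -0.89 without its highest cell and -0.83 in male cells alone). Arterial, venous, Hox and chemokine lists had 0 measured members over the class.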

How the data were processed

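Single cells were sequenced after Nextera XT library preparation on an Illumina HiSeq, per the labels' protocols. The deposited table holds read counts per Ensembl gene for 1087 cells, and no molecular identifiers are described, so PCR copies were counted. HTSeq 0.6.0 and GRCm38 are named, per the submitters' processing notes; the aligner, annotation release and strand setting are not given in the sources used here, so overlapping and antisense genes may share reads. All values used were whole numbers. Of 46078 genes, 45229 had a symbol in the gene table or GENCODE M21, which has the same build. The 453 columns read were those of the G2VInt gate at E11.5 and E11 and of HC2 cells at E10 and in G2VLo. No doublet caller was run on these singly sorted cells.

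Counts were summed over the cells of a day and scaled to CPM, with exact Poisson 95% intervals, and log2 ratios carry a prior of 0.5 reads. Intervals cover counting error only. Thinning to 100000 reads used 1 fixed seed. With 1 sample a day there was no test. A list was called with at least 4 measured members and a median at least 0.5 from that of all measured genes. There were 41 lists with 785 entries. Genes were named by fixed rules: the sorted markers, the 12 highest and 12 lowest stable ratios of the class, the 8 per direction shared by all clusters, the 4 per direction in each cluster, and the 4 largest ratios of each list. Further list members (such as Prtn3, Csf2rb2, Alox5, Slc18a2, Srgn, Klf1, Epor, Cd34, Itga2b, Fos and Jun), unmeasured genes, and the counts of cells past a level were chosen after their values were seen. The cells, lists and rules were chosen with earlier results of these data known.

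Alternatives were the mean of per-cell CPM (offset 0.1), TMM scaling (edgeR 4.0.16, R 4.3.3), a minimum of 5 CPM or none, lower- or upper-numbered libraries, equal cluster weights, thinning, and the clustering of all cells. Male cells alone and each gene without its highest cell were added after the data were seen. Code ran in Python 3.11.15 with numpy 2.4.6, pandas 2.3.3 and scipy 1.17.1, and was tested on simulated data.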

Additional observations from a re-analysis of the deposited data

How the results depend on the processing

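With 1 sample a day, no setting bears on variation between embryos or sorts. The share of measured genes past 2-fold grew when fewer cells stood behind each sum. Against 1.94% higher and 3.31% lower, the lower-numbered libraries gave 4.67% and 7.42%, the upper-numbered 5.001% and 7.28%, and male cells alone 3.42% and 5.82%. Equal cluster weights gave 4.24% higher and thinning gave 3.05%. Without each gene's highest cell the shares were 1.08% and 1.59%. Cells with the same number in both clusterings gave 9.80% higher in cluster 10, against 5.82%. That alternative gave no value for cluster 9 and left cluster 11 as it was. The clustering of all cells put 0.0% of HC2 cells of either day in its cluster 9, since its numbers are its own. In the lower-numbered libraries cluster 11 held 11.1% at E11.

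With equal cluster weights the direction turned for the stem cell list (0.051), the lymphoid list (0.25), Cpa3 (0.48), Hdc (1.86), Il15ra (0.34), Lbh (0.18) and Ltb (0.44). In male cells alone it turned for Pklr (-0.51), Csf2rb (-1.38), Csf2rb2 (-1.10) and Cpox (-0.59). It turned there too for Ermap (-0.49), Epor (-0.48), Klf1 (-0.31) and Mki67 (-0.07). Among negative ratios it turned for Pecam1 (0.10), Cd34 (0.14) and Angpt1 (0.04). The medians of the heme and erythroid membrane lists, set against that of all measured genes, turned in male cells as well. The lower-numbered libraries turned Csf2rb (-0.68) and Igf2 (0.053). Igf2 also turned without the cells of cluster 8 in the clustering of all cells (0.24) and without its highest cell (0.28). The causes were not tested, beyond the share of 1 cell in Igf2 and Csf2rb. TMM scaling added 0.06 to every log2 ratio. No paired analysis was possible because the labels give no replicate numbers and each day is 1 sample. Depth limits genes near 10 CPM, many of which were read in fewer than 20 cells.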
